A study of Mus musculus with 6 samples.

Results

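The long noncoding RNAs described here are the 164 autosomal genes, of 54532 rows in the expression table, that the table annotates as lincRNA, antisense, processed_transcript or sense_intronic and that reached a mean of at least 2 FPKM over 6 mouse hearts. FPKM is a level of sequenced fragments that takes the length of the gene and the depth of the library into account. The table held 8784 autosomal rows of this kind, and 172 of them reached the minimum. 8 of the 172 were left out by name because they are hosts of small nucleolar RNAs (Gas5, Zfas1 and 6 Snhg genes). The rule for membership thus uses annotation, the measured mean level over all hearts and the names left out, and not the contrast between the groups. It was set with earlier results of these data known. The 8 RNAs left out are not in the counts below. The 3 RNAs just inside the minimum were Gm28875 at 2.01, C130083M11Rik at 2.05 and Gm15972 at 2.08 FPKM, and the 3 just outside it were Gm44421 at 1.99, A330069E16Rik at 1.98 and AC133498.1 at 1.97 FPKM.

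Hearts came from 3 Mrps5 fl/fl mice (Ctrl) and 3 Mrps5 fl/fl; MCM mice (cKO). Mrps5 encodes a component of the mitochondrial ribosome, the machine that makes the proteins coded in mitochondrial DNA, and MCM is a Cre recombinase that is made in cardiomyocytes and becomes active with tamoxifen. Both groups carried the floxed allele and received tamoxifen at 8 weeks of age, at 45 mg/kg/day for 5 days, and RNA was sequenced 12 weeks later. Because the control mice lack MCM, an effect of the recombinase itself and an effect of losing Mrps5 cannot be told apart. The libraries were made from poly(A)-selected RNA of bulk tissue, in which fewer cells of a type and less RNA per cell cannot be told apart either.

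Long noncoding RNAs are transcripts without a long open reading frame, many of them spliced and polyadenylated like messenger RNA. Some build nuclear structures, some are read from imprinted loci or are the precursors of microRNAs, and some act on the coding gene that lies beside or across from them. In heart, RNAs of this kind are known from the loci of the myosin heavy chains, of the transcription factor Hand2 and of the muscle microRNAs, while most of the RNAs listed here by a clone or Gm number have no described function. Several annotated lncRNAs have later been found to encode small proteins.

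The targeted gene followed the labels. Mrps5 stood at 5.20, 6.45 and 6.33 FPKM in the Ctrl hearts, against 1.12, 1.23 and 1.31 FPKM in the cKO hearts. It fell by 1.65 on the log2 scale (SE 0.09), with a limma adjusted p of 2.02e-04. Depth ranged from 15989322 to 24875499 recovered reads per heart, and the median member had 124 reads per heart on average. Each heart had at least 1 read for every member, and 10 members had fewer than 10 reads in at least one heart. The library labelled cKO replicate 2 had 10.7 FPKM of Xist and no read of the Y-linked Ddx3y, unlike the other 5 hearts, and the members are all autosomal. Of the marker lists, the summed level of the atrial genes Myl4, Myl7 and Sln ran from 25.2 to 990 FPKM among Ctrl and from 105 to 714 FPKM among cKO hearts. Both ranges overlap widely. Summed endothelial markers stood at 103 to 119 FPKM in Ctrl, against 67.6 to 80.0 FPKM in cKO hearts, with 3 of 4 called lower, and summed cardiomyocyte markers at 8832 to 11702 and at 5420 to 10898 FPKM, with 3 of 5 called lower. The part of cell composition in the results below was not tested.

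More of these RNAs fell than rose. In the limma fit on log2(FPKM + 1), over the 12944 genes that averaged 0.5 FPKM or more, 77 of the 164 were lower and 11 were higher in cKO hearts at an adjusted p under 0.05, and 76 passed in neither direction. Among all genes tested, 17.0% were called lower and 16.3% higher, while among 8484 protein-coding genes that averaged 2 FPKM or more these shares were 19.3% and 19.9%. The median log2 fold change was -0.42 for the 164 RNAs and -0.02 for all genes tested, and 125 of the 164 had a negative value. In 30 of the lower RNAs and 2 of the higher ones the log2 fold change was at least 1 in size. The 3 Ctrl and 3 cKO values did not overlap for 97 of the 164 (59.1%). In these the cKO hearts were lower in 83 and higher in 14. The groups did not overlap for 51.2% of all genes tested and for 57.6% of the 8484 protein-coding genes. Among those coding genes the cKO hearts were lower in 2433 and higher in 2453. The members were thus close to coding genes of like level in the share without overlap, and differed in direction. Leaving out 1 heart left 56 to 73 RNAs lower. The count of higher RNAs was 6 without Ctrl replicate 1, 6 without Ctrl replicate 2, 6 without cKO replicate 1, and between 8 and 10 without any other heart. The split depended on scaling. With each library scaled to its total reads, the median of all genes moved by 0.11 and the calls over all genes shifted to 25.3% higher and 10.7% lower, while 18 of the 164 RNAs were higher and 60 lower.

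**Figure D1:**
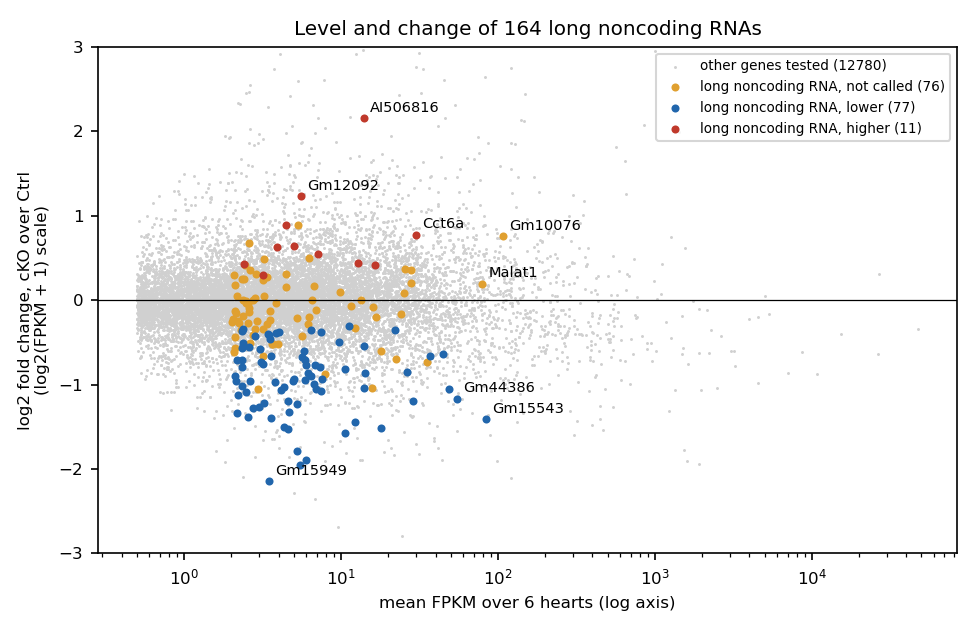
Mean FPKM over the 6 hearts (log axis) against the log2 fold change of cKO over Ctrl for the 164 long noncoding RNAs, coloured by call, with the other 12780 genes tested in grey (11 genes lie outside the axis range of -3 to 3). Blue points, the 77 RNAs called lower, occur at every level up to that of Gm15543, and AI506816 stands apart at 2.15.

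The levels of single hearts show the same in another form. Summed over the 164 RNAs, the level was 1771, 1775 and 1624 FPKM in Ctrl hearts and 1291, 1260 and 1301 FPKM in cKO hearts. The sums of the cKO hearts lay below all Ctrl sums. As a share of all recovered reads, the 164 RNAs took 0.347%, 0.357% and 0.360% in Ctrl and 0.325%, 0.383% and 0.326% in cKO hearts. In this share long genes weigh more, and each heart is scaled to its own total reads instead of by the deposited scaling. On that measure the groups overlapped, with cKO replicate 2 above every Ctrl heart. In that heart 23217 of the 84093 reads of the 164 RNAs came from the single long RNA Neat1. Every other heart had between 7095 and 11158 reads of Neat1. The median RNA stood at 4.76, 4.82 and 4.52 FPKM in Ctrl, against 3.33, 3.23 and 3.20 FPKM in cKO hearts. Between 154 and 159 of the 164 reached 2 FPKM in a Ctrl heart and between 123 and 129 in a cKO heart. A minimum on the mean over both groups keeps some RNAs through the group in which they are high. 38 members had a cKO mean under 2 FPKM, all with a negative fold change, and 5 had a Ctrl mean under 2 FPKM, all with a positive one. Of the 121 with at least 2 FPKM in both groups, 51 were lower and 10 higher, with a median log2 fold change of -0.35. Among 333 autosomal lncRNA rows that were tested but had means from 0.5 to 2 FPKM, 70 were lower and 23 higher, with a median of -0.16. These rows lie close to the added pseudocount, which makes a fold change look smaller.

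**Figure D2:**
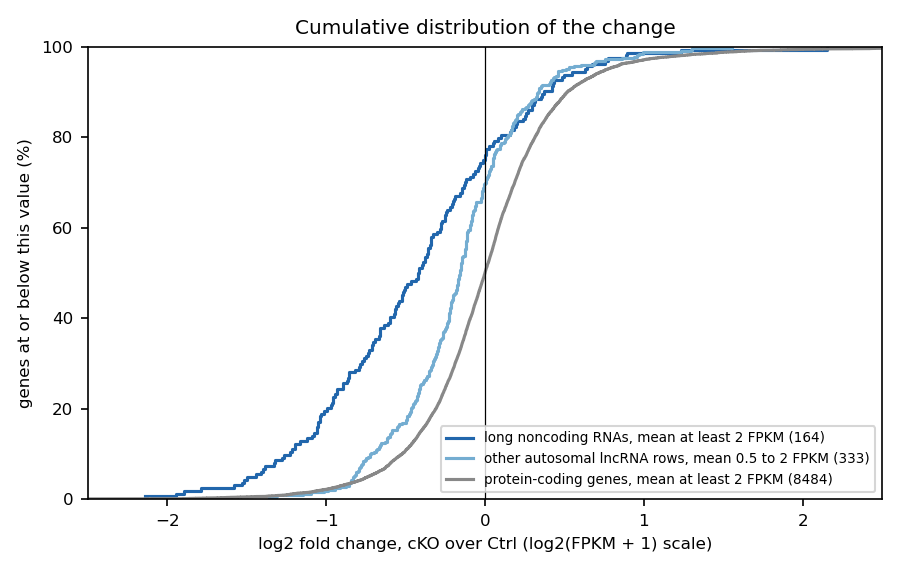
Share of genes (%) at or below each log2 fold change of cKO over Ctrl, for the 164 long noncoding RNAs, for 333 other autosomal lncRNA rows of lower level and for 8484 protein-coding genes. The curve of the 164 RNAs lies to the left of the coding genes over most of its range, with medians of -0.42 and 0.00.

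AI506816 was the most increased of the 164. This processed transcript (ENSMUSG00000105987; chromosome 5, 23698296 to 23712667, minus strand, GRCm38; 4479 bases of exon) was measured at 4.63, 4.22 and 4.57 FPKM in Ctrl, against 26.9, 23.7 and 19.9 FPKM in cKO hearts. The lowest cKO heart thus lay far above the highest Ctrl heart, and the cKO values rested on 2042, 2482 and 2239 reads. The cKO mean was 526% of the Ctrl mean, with a log2 fold change of 2.15 (SE 0.11, limma adjusted p = 1.83e-04). Its span overlaps no coding gene, and the nearest one, Srpk2, a kinase of splicing factors, was not called (log2 fold change -0.10). The promoter window of AI506816 is shown because this RNA changed most, and that of Gm15543 because it was the most abundant of the RNAs that fell. Both run 5′ to 3′ on the strand of the gene, from 250 bases before to 50 bases after the RefSeq start (GRCm38.p6), and capitals mark the 50 transcribed bases. The window of AI506816 is chr5:23712618-23712917 on the minus strand, and that of Gm15543 is chr6:145182025-145182324 on the plus strand.
AI506816: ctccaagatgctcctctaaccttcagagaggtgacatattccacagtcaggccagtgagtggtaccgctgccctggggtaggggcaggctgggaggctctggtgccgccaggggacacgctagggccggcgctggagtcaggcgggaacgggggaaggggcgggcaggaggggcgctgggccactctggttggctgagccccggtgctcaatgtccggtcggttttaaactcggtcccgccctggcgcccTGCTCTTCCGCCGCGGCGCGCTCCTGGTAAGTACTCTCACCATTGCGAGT
Gm15543: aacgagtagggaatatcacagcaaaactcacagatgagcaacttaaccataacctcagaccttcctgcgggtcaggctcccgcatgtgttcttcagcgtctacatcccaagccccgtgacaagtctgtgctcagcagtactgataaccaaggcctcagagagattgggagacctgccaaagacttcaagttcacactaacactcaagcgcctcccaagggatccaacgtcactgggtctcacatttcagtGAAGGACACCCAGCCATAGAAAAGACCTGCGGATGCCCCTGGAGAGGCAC
Neither window holds any of the 4 motifs searched.

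10 further RNAs were called higher, by smaller amounts. Gm12092, a lincRNA of chromosome 11, stood at 2.71, 3.37 and 2.41 FPKM in Ctrl, against 8.76, 11.1 and 5.04 FPKM in cKO hearts (log2 fold change 1.23, SE 0.25, limma adjusted p = 0.011). 9230112J17Rik, a lincRNA beside Thsd4, which was also higher (log2 fold change 0.47), stood at 2.89, 2.40 and 2.80 FPKM in Ctrl, against 8.28, 3.34 and 7.02 FPKM in cKO hearts (log2 fold change 0.89, limma adjusted p = 0.040). The cKO hearts were spread for both, and the lowest of them still exceeded every Ctrl heart. The row named Cct6a, listed as a processed transcript in the table and as protein coding in RefSeq, rose from 22.3, 24.3 and 19.1 to 43.0, 35.3 and 36.2 FPKM (log2 fold change 0.78, limma adjusted p = 0.0039). Cct6a encodes a subunit of the cytosolic chaperonin, so this row is not a clear noncoding RNA. It shares 452 exon bases with Psph on the opposite strand, the enzyme of the last step of serine synthesis, and Psph was itself higher (log2 fold change 1.16, limma adjusted p = 0.0034). The remaining 7 were Gm39214 (log2 fold change 0.64), Hectd2os (0.63), Map2k3os (0.55), Epb41l4aos (0.44), Gm26782 (0.43), Gm17201 (0.42) and 1700120C14Rik (0.29). All 11 had groups that did not overlap. The last of these was named after its values were seen, to complete the list. Only the calls of AI506816, Gm12092, Cct6a and Gm26782 held with each single heart left out. The call of 9230112J17Rik was lost without any one heart other than cKO replicate 2 (adjusted p up to 0.114), and that of Gm39214 without any one other than Ctrl replicate 2 (up to 0.127). Map2k3os lost its call without any one Ctrl heart (up to 0.101), and Hectd2os without Ctrl replicate 1, cKO replicate 1 or cKO replicate 2 (up to 0.0585). For Epb41l4aos this was so without Ctrl replicate 1, Ctrl replicate 2 or cKO replicate 1 (up to 0.0978), and for Gm17201 without Ctrl replicate 2, Ctrl replicate 3 or cKO replicate 1 (up to 0.065). 1700120C14Rik lost its call without any one heart other than Ctrl replicate 3 (up to 0.102).

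**Figure D3:**
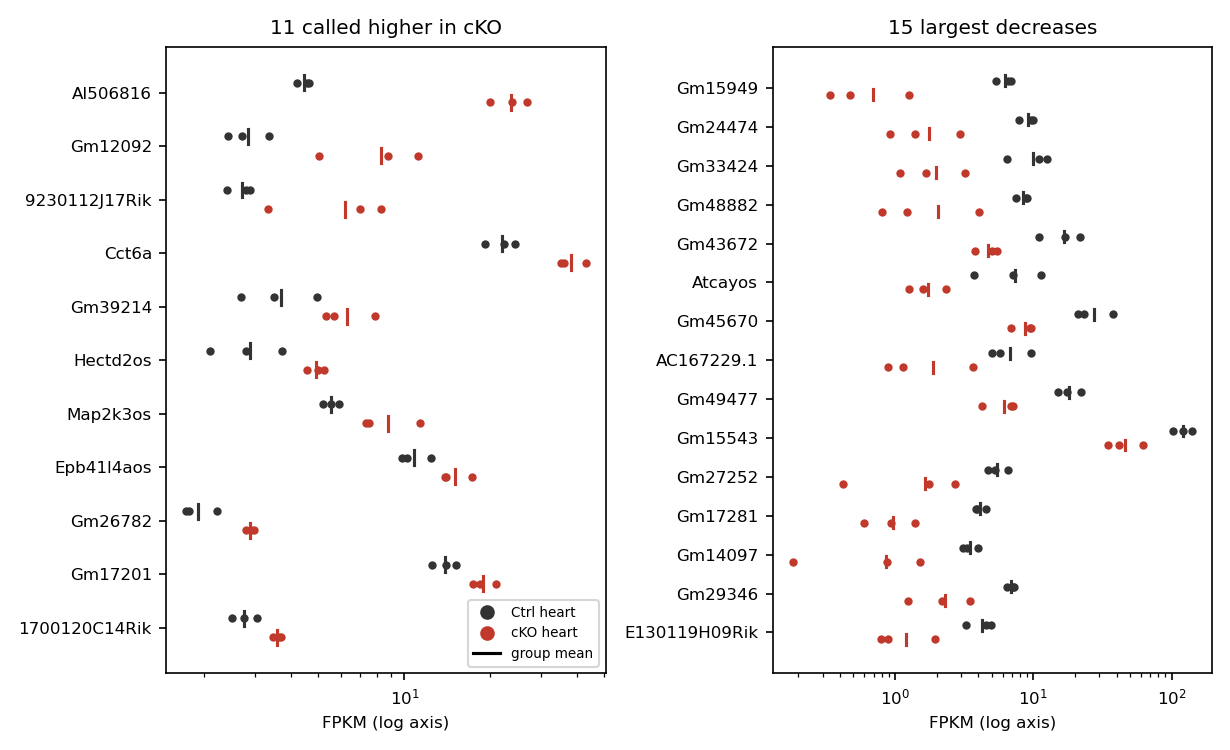
FPKM (log axis) in each Ctrl heart (black) and cKO heart (red) for the 11 RNAs called higher and for the 15 called lower with the largest decreases; vertical bars are group means. The 3 cKO values lie on one side of the 3 Ctrl values for every RNA shown.

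The 10 largest decreases ran from a log2 fold change of -2.14 to -1.41. Gm15949, antisense within the span of Limch1, stood at 5.41, 6.87 and 6.56 FPKM in Ctrl, against 0.469, 0.340 and 1.26 FPKM in cKO hearts (log2 fold change -2.14, SE 0.20, limma adjusted p = 0.0011). This gene has 126 bases of exon, and the cKO values rested on 1, 1 and 4 reads against 13, 18 and 20 in Ctrl hearts, so its size is poorly fixed. Gm24474, a lincRNA of chromosome 12 with no coding gene within 50 kb, stood at 9.62, 9.94 and 7.93 FPKM in Ctrl, against 1.39, 0.913 and 2.97 FPKM in cKO hearts (log2 fold change -1.95, SE 0.25, limma adjusted p = 0.0027). Gm33424, a lincRNA of chromosome 13, had 11.0, 12.5 and 6.43 FPKM in Ctrl against 3.22, 1.67 and 1.08 FPKM in cKO hearts (log2 fold change -1.90, SE 0.31, limma adjusted p = 0.0053). In these 3 RNAs the cKO mean was 11.0%, 19.2% and 19.9% of the Ctrl mean, and every cKO heart was below every Ctrl heart. Gm43672, which starts divergently from Tbl1xr1, a subunit of nuclear corepressor complexes, fell from 16.9, 21.7 and 11.1 to 5.43, 3.76 and 5.01 FPKM (log2 fold change -1.58), while Tbl1xr1 was not called (-0.07). The others were Gm48882 (log2 fold change -1.79), Atcayos (-1.53), Gm45670 (-1.51), AC167229.1 (-1.50), Gm49477 (-1.44) and Gm15543 (-1.41). Only for AC167229.1 among the 10 was the call lost when a heart was left out, with adjusted p-values of 0.0665 without Ctrl replicate 3, 0.0655 without cKO replicate 1 and 0.0501 without cKO replicate 2.

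Of the 5 most abundant RNAs, 3 fell to less than 50% of their Ctrl level. Gm15543 (antisense, chromosome 6, 361 bases of exon) stood at 141, 122 and 103 FPKM in Ctrl, against 41.7, 34.9 and 62.1 FPKM in cKO hearts (cKO mean 38.0% of Ctrl, limma adjusted p = 0.0042). It lies within the span of Casc1, which was expressed too weakly to be tested. Gm44386, a lincRNA of chromosome 6, had 73.1, 83.4 and 70.3 FPKM in Ctrl and 28.8, 33.2 and 37.7 FPKM in cKO hearts (log2 fold change -1.17, SE 0.12, limma adjusted p = 0.0014). Its nearest coding gene, Pcbp1, an RNA-binding protein, lies 8219 bases upstream on the same strand. Pcbp1 was higher (0.57), so this pair moved in opposite directions. Gm5532 of chromosome 1 had 56.4, 79.9 and 62.8 FPKM in Ctrl and 30.2, 25.9 and 38.9 FPKM in cKO hearts (log2 fold change -1.05, SE 0.18, limma adjusted p = 0.0061). The remaining 2 of the 5 did not pass. Malat1 is described with the nuclear RNAs below, and Gm10076, the most abundant of all, varied from 32.8 to 174 FPKM among Ctrl and from 95.6 to 182 FPKM among cKO hearts (log2 fold change 0.76, limma adjusted p = 0.344). RefSeq lists Gm10076 as a pseudogene, and its transcript matched that of the ribosomal protein gene Rpl41 over its whole length at 99.5% identity, so that reads of the 2 genes may have been exchanged.

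Nuclear body RNAs did not pass the test in these poly(A)-selected libraries. Forms of these RNAs without a poly(A) tail would be missed or undercounted in such libraries. Malat1, an abundant RNA of nuclear speckles, stood at 71.3, 69.5 and 79.8 FPKM in Ctrl, against 80.7, 94.6 and 78.2 FPKM in cKO hearts (log2 fold change 0.20, SE 0.10, limma adjusted p = 0.175). With scaling to total reads it passed at 0.34 (adjusted p = 0.044). Neat1, the scaffold of paraspeckles, stood at 17.9, 23.2 and 22.2 FPKM in Ctrl, against 22.9, 47.9 and 18.7 FPKM in cKO hearts (log2 fold change 0.37, SE 0.32, limma adjusted p = 0.409). The single value of 47.9 FPKM in cKO replicate 2 set its direction, and without that heart the log2 fold change was -0.02. The groups overlapped for both RNAs.

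Of the RNAs from imprinted loci, Peg13 was lower and H19 was not called. Peg13, read from an intron of Trappc9, stood at 15.1, 13.5 and 12.6 FPKM in Ctrl, against 7.25, 6.54 and 8.27 FPKM in cKO hearts (log2 fold change -0.82, SE 0.10, limma adjusted p = 0.0025). Its host Trappc9, a trafficking complex subunit, was also lower (-0.29). H19, an RNA of fetal tissue and muscle, had 13.3, 8.48 and 18.6 FPKM in Ctrl and 9.27, 12.4 and 18.4 FPKM in cKO hearts (log2 fold change 0.01, SE 0.31). Its groups covered almost the same range, and its sign turned without Ctrl replicate 2 (-0.27) and without cKO replicate 3 (-0.24).

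On the list of RNAs known from heart or muscle, the members were Mhrt and Bvht. That list is not complete, and AV026068 at the Hand2 locus, described below, is not on it. Mhrt is read across from Myh7, the slow myosin heavy chain of ventricle that rises in stressed mouse heart, and is known as a cardiac RNA that binds a chromatin remodeller. It stood at 28.9, 31.1 and 20.5 FPKM in Ctrl, against 9.49, 30.2 and 13.9 FPKM in cKO hearts (log2 fold change -0.69, SE 0.38, limma adjusted p = 0.203). The heart cKO replicate 2 lay within the Ctrl range, and without it the log2 fold change was -1.13 (adjusted p = 0.014). Myh7, with which Mhrt shares 484 exon bases, was higher (0.80, limma adjusted p = 0.031). Bvht, known from cardiac lineage commitment, had 11.2, 9.97 and 13.1 FPKM in Ctrl and 7.86, 6.37 and 9.38 FPKM in cKO hearts (log2 fold change -0.49, SE 0.15, limma adjusted p = 0.042). Its groups did not overlap, but the call sat close to the threshold and was lost under 10 of 15 alternatives, 5 of them single hearts left out (adjusted p of 0.0934, 0.0533 and 0.122 without Ctrl replicates 1, 2 and 3, and of 0.0907 and 0.082 without cKO replicates 1 and 2).

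Of the RNAs linked to growth and stress, 1 of 2 fell. 2900097C17Rik, the mouse form of Norad, an RNA that binds Pumilio proteins, stood at 57.3, 52.9 and 51.9 FPKM in Ctrl, against 35.2, 28.3 and 40.6 FPKM in cKO hearts (log2 fold change -0.64, SE 0.13, limma adjusted p = 0.011). Tug1 was flat at 4.04, 3.87 and 3.82 against 3.98, 3.50 and 3.97 FPKM (log2 fold change -0.03, SE 0.07), with a sign that turned under 3 alternatives. 1810058I24Rik, now known to code a small mitochondrial peptide, was not called (log2 fold change 0.08, SE 0.13) and had 22.0 to 28.6 FPKM in Ctrl and 22.3 to 28.4 FPKM in cKO hearts. Over the 6 lists of RNAs with a described role, 4 of 11 members were lower, none was higher by the limma test, and 7 were not called. Of all 164 members 77 were lower and 11 higher, and of all genes tested 17.0% were lower and 16.3% higher. The lists do not hold every RNA with a described role. AV026068 and 1700020I14Rik, both given below, are on none of them.

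**Figure D4:**
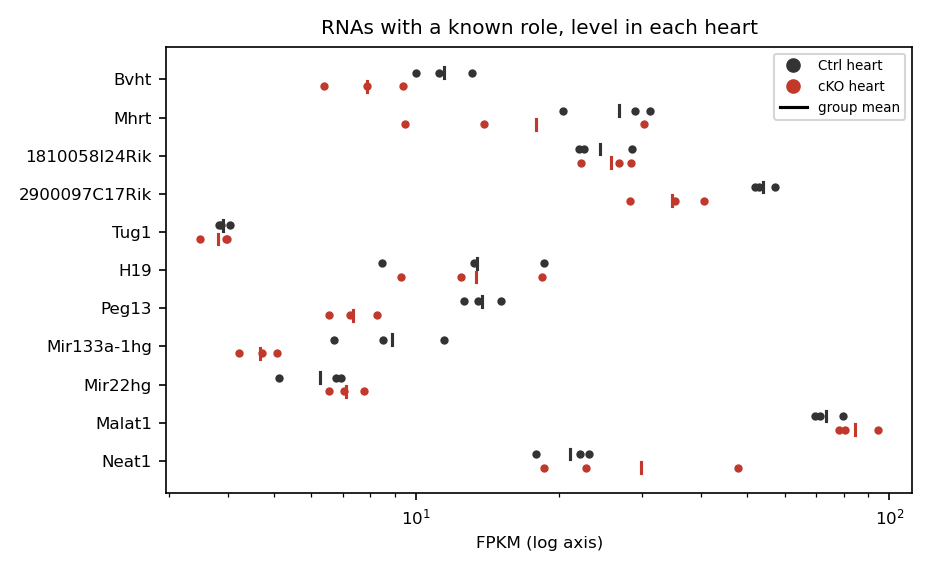
FPKM (log axis) in each Ctrl heart (black) and cKO heart (red) for the 11 RNAs with a described role; vertical bars are group means. The groups are separate for Bvht, 2900097C17Rik, Peg13 and Mir133a-1hg, while cKO replicate 2 is the highest cKO heart for Neat1 and Mhrt.

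Several members contain microRNAs; apart from Mir133a-1hg and Mir22hg they were grouped by position after their values were seen. Mir133a-1hg, the precursor of muscle microRNAs, stood at 8.50, 11.4 and 6.70 FPKM in Ctrl, against 5.09, 4.23 and 4.73 FPKM in cKO hearts (log2 fold change -0.77, SE 0.17, limma adjusted p = 0.015). Of the other members searched, 6 held a RefSeq microRNA on their own strand, and 4 of these were called lower, where 77 of all 164 members were. 2900076A07Rik, the host of miR-1839, had 8.53, 8.64 and 9.00 FPKM in Ctrl and 3.85, 4.41 and 4.43 FPKM in cKO hearts (log2 fold change -0.90, SE 0.08, limma adjusted p = 8.32e-04). Gm27028, the host of miR-30c-2, had 3.81, 3.01 and 6.11 against 1.78, 2.15 and 2.29 FPKM (log2 fold change -0.75, limma adjusted p = 0.029). In both, each cKO heart was below each Ctrl heart. E130102H24Rik, the host of miR-101a, had 2.51, 2.04 and 4.32 against 1.22, 1.45 and 1.39 FPKM (log2 fold change -0.71, limma adjusted p = 0.032). 6720427I07Rik, the host of let-7d, had 3.06, 2.86 and 2.35 against 2.00, 1.82 and 2.04 FPKM (log2 fold change -0.34, limma adjusted p = 0.030). Mir22hg, the host of miR-22, was not called at 6.92, 5.12 and 6.77 against 7.74, 7.03 and 6.55 FPKM (log2 fold change 0.16, SE 0.12), nor was H19, which holds miR-675. Only the call of 2900076A07Rik among these 4 held with each single heart left out. Those of Gm27028 and E130102H24Rik were lost without Ctrl replicate 1 or any one cKO heart (adjusted p up to 0.0853 and 0.0874), and that of 6720427I07Rik without any one heart other than Ctrl replicate 3 (up to 0.0958). The mature microRNAs themselves were not measured in these libraries, and the fold change of a host is not that of its microRNA. The mature sequences are shown to identify what the changed and unchanged hosts carry, with the seed, bases 2 to 8, in capitals (RefSeq, GRCm38.p6). In the order shown they lie at chr7:81529919-81529940, chr1:23291714-23291736, chr4:101346957-101346977, chr13:48536078-48536099, chr11:75463772-75463793 and chr7:142577112-142577133, with miR-101a, let-7d and miR-675 on the minus strand and the others on the plus strand.
miR-1839-5p: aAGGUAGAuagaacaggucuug
miR-30c-5p: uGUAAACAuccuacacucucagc
miR-101a-3p: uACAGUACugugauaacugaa
let-7d-5p: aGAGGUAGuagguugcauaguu
miR-22-3p: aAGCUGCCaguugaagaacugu
miR-675-5p: uGGUGCGGaaagggcccacagu
No 2 of these seeds are the same. The microRNAs let-7f-1 and let-7a-1 lie upstream of the annotated start of 6720427I07Rik, and their 5p arms share the seed of let-7d. Mature miR-23a, miR-27a and miR-24 likewise lie upstream of the annotated start of Gm26532, which was not called (log2 fold change -0.13).

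Many members lie against a coding gene, and the library kit does not keep the strand, so reads in a shared exon cannot be assigned to one of the 2 genes. By GENCODE positions, 47 members overlapped a coding exon, 22 more overlapped the span of a coding gene without sharing exon, 21 started within 1 kb of a coding gene on the other strand, 54 lay within 50 kb of one and 20 lay farther away. Lower calls came from each class, with 18 of 47, 14 of 22, 11 of 21, 24 of 54 and 10 of 20 members. Higher calls numbered 6, 0, 1, 4 and 0 in the same order. Of the 95 members that overlap no coding gene, 45 were lower and 5 higher, with a median log2 fold change of -0.42, the same to 2 decimals as for the 69 that overlap one.

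Some lower RNAs lay across from genes that rose. Atcayos, which shares 270 exon bases with Nmrk2, fell from 7.17, 11.4 and 3.70 to 1.27, 1.61 and 2.33 FPKM (log2 fold change -1.53, SE 0.34, limma adjusted p = 0.014). Nmrk2, a muscle kinase of NAD synthesis that is known to rise in failing heart, stood at 5.69, 3.55 and 6.13 FPKM in Ctrl, against 54.1, 505 and 28.7 FPKM in cKO hearts (log2 fold change 3.97, limma adjusted p = 0.020). Every cKO heart was below every Ctrl heart for Atcayos and above every Ctrl heart for Nmrk2. Gm17281, with 42 bases shared with Pacsin3, a membrane-bending protein of muscle, fell from 3.90, 4.57 and 3.82 to 0.593, 0.931 and 1.40 FPKM (log2 fold change -1.39, limma adjusted p = 0.0017) while Pacsin3 was higher (0.52). Gm45670, within the span of the helicase gene Dhx32, fell from 23.4, 37.7 and 20.9 to 6.90, 9.70 and 9.50 FPKM (log2 fold change -1.51, limma adjusted p = 0.0039), and Dhx32 was higher (0.55).

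In other pairs both genes were lower. Gm14097 and Shld1 had log2 fold changes of -1.33 and -1.90, Gm48882 and Cradd of -1.79 and -0.68, and 9430091E24Rik and Pdpr, a regulator of pyruvate dehydrogenase, of -0.80 and -0.79. Gm31105 and Gab1, an adaptor of growth factor receptors, had log2 fold changes of -0.89 and -0.43. For Gm20522 (-0.96) and 4930481A15Rik (-1.08) the overlapped coding genes Gpank1, D17H6S53E and Drap1 were not called, and Plet1, across from Plet1os (-1.05), was too weak to be tested. Over the 18 pairs with shared exon in which the RNA was lower and the coding gene was tested, the coding gene was lower in 8, higher in 3 and not called in 7. Among the 13 such pairs that share only span, the counts were 7, 3 and 3, and among the 11 divergent pairs they were 3, 2 and 6. For comparison, 17.2% of all protein-coding genes tested were called lower and 17.0% higher. Whether the partners differ from this share was not tested. In 14 of the 18, 11 of the 13 and 10 of the 11 pairs the RNA had the lower log2 fold change of the 2. Choosing pairs by a lower RNA favours this outcome. Over all tested pairs, whatever the call of the RNA, the RNA had the lower value in 33 of 48, 11 of 19 and 15 of 21. Where the RNA was higher, Gm17201 (0.42) lay across from Ankrd52 (0.45) and Gm26782 (0.43) from the telomerase-associated gene Tep1 (0.49), all 4 called higher, while Gm39214 (0.64) lay across from Itfg1, which was lower (-0.36).

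**Figure D5:**
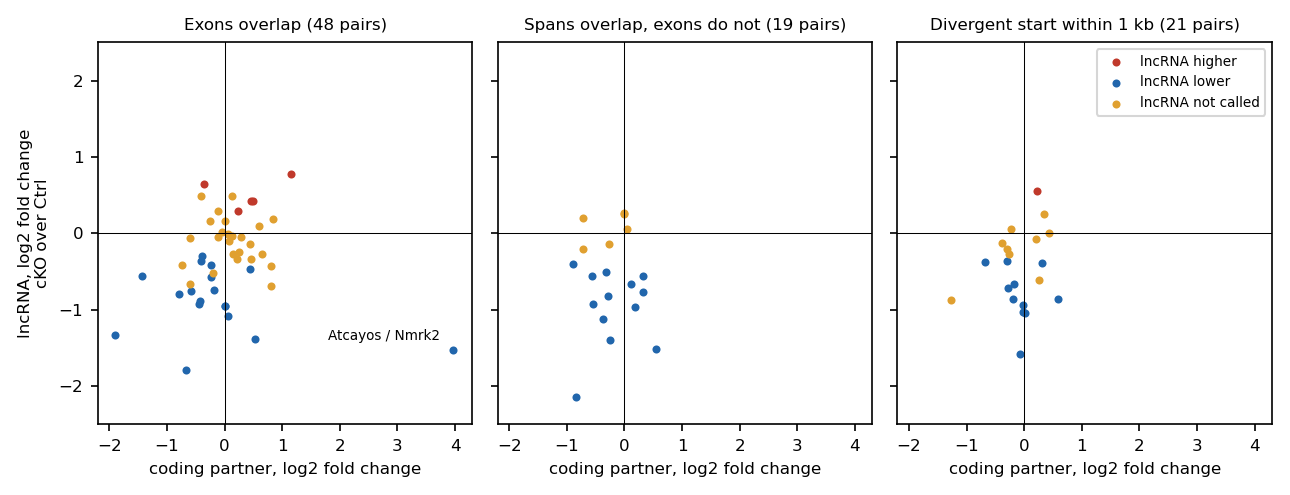
Log2 fold change (cKO over Ctrl) of the coding partner against that of the long noncoding RNA for 48 pairs with shared exon, 19 pairs with overlapping spans only and 21 pairs with divergent starts within 1 kb, coloured by the call of the RNA. Blue points lie on both sides of the vertical zero line, and Atcayos with Nmrk2 is the farthest to the right.

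Several members sit at loci of cardiac genes, and those given here were picked by neighbour after the values were seen. They are not all such members, so how many of them were lower says nothing of cardiac loci in general. Of those left out, some were called lower and some were not called. Gm12295 near Myocd (log2 fold change -0.04) and Gm10747 near Lrrc10 (0.42), for example, were not called. AV026068, which shares 461 exon bases with Hand2, a transcription factor of ventricle development, fell from 6.15, 7.49 and 9.84 to 4.19, 3.87 and 4.34 FPKM (log2 fold change -0.76, SE 0.15, limma adjusted p = 0.0096). Hand2 itself was spread at 26.0, 34.6 and 49.4 FPKM in Ctrl and 42.7, 13.3 and 22.0 FPKM in cKO hearts and was not called (-0.59, limma adjusted p = 0.309). Gm43050, divergent from the cardiac transcription factor Tbx5, was lower (log2 fold change -0.37, limma adjusted p = 0.034), as was Tbx5 (-0.67, limma adjusted p = 0.014). The call of Gm43050 was lost without any one heart other than Ctrl replicate 3 (adjusted p up to 0.0763). C130080G10Rik, divergent from the sarcomeric actin gene Actc1, fell from 16.8, 21.9 and 16.9 to 7.15, 10.1 and 12.5 FPKM (log2 fold change -0.86, limma adjusted p = 0.016), with Actc1 not called (-0.20). Without Ctrl replicate 2 its adjusted p was 0.0546. Gm12319, divergent from the muscle enolase Eno3, did not pass at 11.0, 9.16 and 10.4 against 5.63, 2.52 and 8.80 FPKM (log2 fold change -0.87, limma adjusted p = 0.088), although Eno3 was lower (-1.27). It passed without cKO replicate 3 (-1.21, adjusted p = 0.022). Across from phospholamban, the brake on calcium uptake, Gm47644 was lower (-0.56, limma adjusted p = 0.036), and 1644 of its exon bases are shared with Pln, which was lower too (-1.43). Gm47644 also overlaps the span of Cep85l on its own strand, and Cep85l was lower as well (-0.57). The call of Gm47644 was lost without Ctrl replicate 2 or 3 or cKO replicate 1 or 3 (adjusted p up to 0.110). At the myosin locus, Gm31251 (log2 fold change -0.42) and Gm49130 (-0.06) were not called, and like Mhrt both had their highest cKO value in replicate 2, at 10.3 and 15.95 FPKM. Without that heart Gm31251 passed (-0.99, adjusted p = 0.018). Apart from these loci, 1700020I14Rik, also named after its values were seen, lies near Oip5, which was expressed too weakly to be tested. 1700020I14Rik fell from 40.8, 49.95 and 44.9 to 25.5, 28.4 and 30.8 FPKM (log2 fold change -0.66, SE 0.10, limma adjusted p = 0.0047).

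By annotation type, 38 of 79 lincRNAs, 26 of 53 antisense RNAs, 11 of 29 processed transcripts and 2 of 3 sense intronic RNAs were lower, and 4, 3, 4 and 0 were higher. By level, 41 of 94 RNAs with a mean of 2 to 5 FPKM were lower, 28 of 52 with 5 to 20 FPKM and 8 of 18 above that. The lower RNAs had a median exon length of 936 bases and a median GC content of 49.0%, the higher ones 1952 bases and 47.3%, and those not called 1012 bases and 48.8%. The ranges of both properties overlap between the 3 sets. RefSeq listed 96 of the members as lncRNA, 10 as protein coding and 3 as a pseudogene, and 55 had no match. Transcripts of 4 members (Gm10076, AC131339.2, Gm47547 and Gm6712) matched a coding transcript of another locus over at least 50% of their length at 95% identity or more, so reads may be split between copies. AC131339.2 (log2 fold change -1.20) and Gm47547 (-0.997) matched the same gene, Gm8113. These 4 were named after their values were seen, except Gm10076. Without these and the RefSeq coding and pseudogene entries, 149 members remained, of which 73 were lower and 10 higher, with a median of -0.47.

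Promoter windows of 300 bases were matched in the RefSeq table for 90 of the 164 members. The C/EBP-ATF composite motif TGATGNAA was in the windows of 1 of the 90 (1.11%) and in 3.97% of all 32851 windows, the E-box CACGTG in 5 (5.56%, against 7.15%) and the GATA box AGATAA in 10 (11.1%, against 11.2%), each on either strand. The MEF2 motif was in 2 windows (2.22%, against 0.557%), those of Lsmem2 and Gm32352. Both RNAs, named here after their values were seen, were called lower, as were 41 of the 90 members with a window. A link between the motif and the change was not tested. The windows of these 2 RNAs are shown because MEF2 factors are known regulators of muscle genes, with the motif in capitals. The window of Lsmem2 is chr9:107597026-107597325 and that of Gm32352 is chr8:119670887-119671186, both on the minus strand.
Lsmem2: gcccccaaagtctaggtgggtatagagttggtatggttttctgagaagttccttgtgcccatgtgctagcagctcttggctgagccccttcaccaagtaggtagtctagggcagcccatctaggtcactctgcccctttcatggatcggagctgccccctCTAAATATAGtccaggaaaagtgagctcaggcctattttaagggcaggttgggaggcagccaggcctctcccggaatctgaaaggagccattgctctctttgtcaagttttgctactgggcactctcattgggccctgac
Gm32352: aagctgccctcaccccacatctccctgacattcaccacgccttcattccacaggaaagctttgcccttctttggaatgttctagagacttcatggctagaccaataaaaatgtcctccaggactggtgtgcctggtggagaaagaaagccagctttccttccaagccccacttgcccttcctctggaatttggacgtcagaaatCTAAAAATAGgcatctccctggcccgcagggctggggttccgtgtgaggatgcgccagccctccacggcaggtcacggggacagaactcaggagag
Lsmem2, which RefSeq lists as protein coding, stood at 35.4, 40.1 and 26.6 FPKM in Ctrl, against 12.3, 23.8 and 20.04 FPKM in cKO hearts (log2 fold change -0.86, SE 0.25, limma adjusted p = 0.037). Its call was lost without Ctrl replicate 1 or 2 or cKO replicate 1 or 3 (adjusted p up to 0.114), and that of Gm32352 without Ctrl replicate 1 or 3 (up to 0.052).

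The 76 RNAs that passed in neither direction had log2 fold changes from -1.06 to 0.89. Gm26809 had the widest spread for its level, at 5.61, 22.5 and 36.9 FPKM in Ctrl and 13.8, 2.00 and 14.3 FPKM in cKO hearts (log2 fold change -1.04, SE 0.82, limma adjusted p = 0.367). Gm31678 had 4.97, 1.38 and 4.46 FPKM in Ctrl and 4.94, 7.36 and 8.84 FPKM in cKO hearts (log2 fold change 0.89, limma adjusted p = 0.104). Both were picked after their values were seen, for large changes that stayed within the spread between hearts.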

How the data were processed

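Heart RNA of 3 Ctrl and 3 cKO mice was poly(A)-selected and sequenced in paired ends with a kit that does not mark strand. Per the submitters' processing notes, the authors used HISAT2 2.0.5, featureCounts 1.5.0-p3 and DESeq2 1.16.1. The deposited values are FPKM per gene, already scaled between samples. How reads of overlapping genes were counted is not given in the sources used here. The notes name mm9, while the coordinates match GRCm38.

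All values were whole multiples of the value of 1 read (tolerance 0.01), which gave depths of 15989322 to 24875499 reads. log2(FPKM + 1) of genes averaging 0.5 FPKM or more was compared with limma 3.58.1 in R 4.3.3 (moderated test with trend, no covariate, Benjamini-Hochberg adjustment over 12944 genes, threshold 0.05, two-sided) after a check on simulated data. MicroRNAs and promoters were taken from RefSeq tables (GRCm38.p6), without chromosome 18 for microRNAs. A fold change on this scale understates the change of low genes. An exact permutation test of 3 against 3 hearts cannot go below 0.1 and was not used. Nothing in the labels says more of how the hearts were collected, so p-values measure the spread between these samples.

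The members, gene lists and tests were chosen with earlier results of these data known. Named are Mrps5, members on a role list, the 10 called members with the largest and the 10 with the smallest log2 fold change, the 5 most abundant, up to 10 called members overlapping a coding exon, their coding partners, and the neighbours of the minimum; any other is marked as chosen after its values were seen. 1 pair that the rule names is not reported here. Summed FPKM of the remaining marker lists was 119 to 140 in Ctrl and 98.3 to 111 in cKO hearts for fibroblasts (Col1a1 called higher, Dcn lower). It was 156 to 172 and 95.6 to 121 for mural cells (Acta2 higher, Rgs5 and Kcnj8 lower). For macrophages it was 88.1 to 121 and 78.7 to 109 (Csf1r lower), and for red cells 715 to 1742 and 482 to 1294. The fibroblast and mural sums did not overlap between groups, and the macrophage and red cell sums did. Lymphocyte (at most 0.422), adipocyte (at most 4.36) and Schwann cell (at most 0.920) markers were low. Other pseudocounts, minimums, scalings, a replicate block, voom, member definitions and single hearts left out were tried.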

Additional observations from a re-analysis of the deposited data

How the results depend on the processing

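Mrps5 kept its direction and call under all alternatives. The excess of lower over higher RNAs held under every alternative run, but counts and the median moved. The median was -0.55 with a pseudocount of 0.1, -0.35 without mitochondrial genome genes in the scaling, -0.51 with voom on recovered reads, and -0.30 with scaling to total reads. Without a filter on low values 5 RNAs were higher, and with scaling to total reads, an alternative chosen after seeing the data, 18 were higher. With a member minimum of 1 FPKM 21 were higher and 111 lower (median -0.32), and with 5 FPKM 7 and 36 (-0.57). For members that overlap no coding gene the counts were 5 and 45. For those with at least 2 FPKM in both groups, added after seeing the data, 51 were lower (-0.35), and without RefSeq coding, pseudogene or copied members, also added, the median was -0.47. The member definitions change the number of RNAs counted, and for the other settings the cause was not tested.

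Leaving out single hearts gave 6 to 10 higher, 56 to 73 lower, medians of -0.45 to -0.38 and 100 to 115 RNAs without overlap (61.0% to 70.1% of members, beside 57.6% to 61.5% of all genes in the same comparisons). Of 14 called RNAs named outside the rule, 9 were lost with at least 1 heart left out. Of 34 named and called RNAs, 25 stayed called under all 15 alternatives and 9 were lost under at least 1. Tug1 reversed to 0.040 without mitochondrial genome genes and to 0.089 with total reads, and ran from -0.055 to 0.017 with single hearts left out. H19 ran from -0.27 to 0.26 and Neat1 from -0.021 to 0.64 with single hearts left out. Gm49130 reversed to 0.017 without mitochondrial genome genes, 0.036 with voom and 0.075 with total reads, and ran from -0.40 to 0.21 with single hearts left out. Gm10076 passed only without Ctrl replicate 1 (1.40, limma adjusted p = 0.043).

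With the replicate block 12 RNAs were higher and 78 lower, 9 and 75 of them shared with the calls without it. Same-numbered hearts correlated at -0.06, 0.17 and -0.01, where all pairs of a Ctrl and a cKO heart ran from -0.14 to 0.17. Only the hearts numbered 2 correlated best with each other. With 3 hearts per group these values can neither show nor exclude that the numbers pair hearts. 10 RNAs had fewer than 10 reads in at least one heart, which limits the precision of their values.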
